A study of Mus musculus with 86 samples.

Results

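The adult myosin heavy chain genes examined here were Myh1, Myh2, Myh4, Myh7 and Myh7b, 5 of the 42807 genes in a table of expected counts from mouse gastrocnemius and soleus. They were chosen by name. Each gene's share of the summed counts of the 5 was computed in every library, and its level and share were compared among the groups of each muscle. Male C57BL/6N mice, 10 weeks old, had received 25 mg/kg of dexamethasone (DEX), a synthetic glucocorticoid used to induce muscle wasting, by intraperitoneal injection each day for 10 days. Non-treated mice (NT) were injected and gavaged with buffer. All other mice received DEX, and 30 minutes later a gavage of buffer (the DEX group), of a hot water extract, or of 200 mg/kg of resveratrol (RSV), a polyphenol found in plants. The extracts combined peony root and liquorice root in the ratios 2:1 (JGT-02), 1:1 (JGT-03) and 1:2 (JGT-04), each at 100 and at 400 mg/kg. Extracts and RSV were given in a cellulose vehicle and DEX mice received buffer, so effects of vehicle and of treatment cannot be told apart. Each muscle had 43 libraries in 9 groups, with 4 mice in the DEX group, 4 in the group given JGT-04 at 400 mg/kg and 5 in each of the others.

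Myosin heavy chain is the motor protein of the thick filament, and the isoform a fibre makes sets how fast it shortens. Slow type I fibres use Myh7, and the fast fibres of types IIa, IIx and IIb use Myh2, Myh1 and Myh4. Myh7b is an ancestral relative of Myh7 that carries the microRNA miR-499 in an intron, as Myh7 carries miR-208b. The mouse gastrocnemius is mostly fast and the soleus is a mixture of slow and type IIa fibres. In whole muscle, fewer fibres of a type and less RNA per fibre cannot be told apart.

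On GRCm38 with the GENCODE vM21 annotation, the fast genes lie side by side on the forward strand of chromosome 11. Myh2 (ENSMUSG00000033196.17) spans chr11:67171027-67197517, Myh1 (ENSMUSG00000056328.14) spans chr11:67200052-67224575 and Myh4 (ENSMUSG00000057003.12) spans chr11:67238029-67260446. Myh7 (ENSMUSG00000053093.16) lies on the reverse strand at chr14:54970684-54994626, and Myh7b (ENSMUSG00000074652.3) on the forward strand at chr2:155611212-155634307. The 3 fast genes are shown with the 250 bases before their RefSeq start (GRCm38.p6), because those stretches share an unbroken run although the genes had very different levels. In each sequence the first block of capitals marks the shared run of 20 bases, and TATAAA, where capitalised, lies within 60 bases of the start.
Myh2, chr11:67170777-67171026, forward strand: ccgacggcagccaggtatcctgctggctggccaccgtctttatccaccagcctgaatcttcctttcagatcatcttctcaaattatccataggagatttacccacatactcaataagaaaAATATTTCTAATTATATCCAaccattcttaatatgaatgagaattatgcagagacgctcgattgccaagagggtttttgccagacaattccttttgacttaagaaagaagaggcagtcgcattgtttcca
Myh1, chr11:67199852-67200101, forward strand: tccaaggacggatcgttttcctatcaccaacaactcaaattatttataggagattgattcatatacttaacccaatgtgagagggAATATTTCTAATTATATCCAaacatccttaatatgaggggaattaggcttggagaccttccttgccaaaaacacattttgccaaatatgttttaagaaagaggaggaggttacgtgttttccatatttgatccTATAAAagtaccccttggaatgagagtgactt
Myh4, chr11:67237562-67237811, forward strand: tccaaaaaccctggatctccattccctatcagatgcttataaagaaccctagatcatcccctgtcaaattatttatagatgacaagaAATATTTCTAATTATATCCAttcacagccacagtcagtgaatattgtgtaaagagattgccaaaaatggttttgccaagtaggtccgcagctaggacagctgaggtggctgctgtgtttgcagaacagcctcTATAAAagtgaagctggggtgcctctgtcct

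The shared run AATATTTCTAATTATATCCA, searched on both strands, was present in 0.00913% of 32851 RefSeq promoters of this length. It was picked because the fast genes share it, so this percentage takes them in and is not an independent background. The run began 130 bases before the start of Myh2, 165 before Myh1 and 163 before Myh4, and was not found before Myh7 or Myh7b. TATAAA began 32 bases before the start of Myh1 and 31 before Myh4, and 12.4% of all promoters hold it somewhere. The letters AGAACA, which form a glucocorticoid receptor half-site, were found once, 42 bases before the start of Myh4, and 16.1% of all promoters hold them. Over the 250 bases Myh1 and Myh4 were identical at 55.8% of positions, Myh1 and Myh2 at 50.5% and Myh2 and Myh4 at 49.8%. These matches describe letters in a window and were not tested for binding.

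The slow genes are shown by the mature microRNAs that RefSeq places in their introns, with the seed (bases 2 to 8) in capitals, because the pair shares 6 of 7 seed bases.
mmu-miR-208b-3p, in Myh7, chr14:54975710-54975731, reverse strand: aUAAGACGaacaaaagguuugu
mmu-miR-499-5p, in Myh7b, chr2:155622893-155622913, forward strand: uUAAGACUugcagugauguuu
The table listed both microRNA genes, Mir208b and Mir499, at 0 in all 86 libraries. The libraries were read as 100 bp pairs, longer than these microRNAs, so the 0 cannot tell whether they were present.

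The fast coding sequences are alike, so part of their counts rests on how the authors' software divided shared reads. Of the 31-base words in its transcripts, Myh1 shared 37.9% with another gene, Myh2 32.8%, Myh4 30.4% and Myh7 22.9%, the last almost all with Myh6. For Myh7b the share was 0.167%. Myh1, Myh2, Myh7 and Myh7b also overlap genes on the other strand. The setting for strand in the counting is not given in the sources used here, so reads of these partners cannot be told apart with certainty.

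Total expected counts, in units of 1e6, ran from 22.35 to 32.14 in gastrocnemius libraries and from 18.75 to 34.63 in soleus libraries. Leaving out 3 libraries that stood apart, the 5 genes held 4.237 to 5.582% of all counts in gastrocnemius and 1.272 to 2.186% in soleus. Those 3 were the gastrocnemius of mouse 1 given JGT-02 at 100 mg/kg, the soleus of mouse 5 in that group, and the soleus of mouse 1 given JGT-02 at 400 mg/kg. They are described first, because they widened the spread on which the tests rest.

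In the gastrocnemius library that stood apart, Myh4 was at 5609 CPM (counts per 1e6 counts, scaled by edgeR), Myh1 at 1625, Myh2 at 203, Myh7 at 5.81 and Myh7b at 1.27 CPM. Its Myh1 share was 21.8% and its Myh4 share 75.3%. The embryonic chain Myh3 was at 1167 CPM against 2.68 to 26.4 in the other gastrocnemius libraries, and the neonatal chain Myh8 at 617 against 1.76 to 14.1. Myog, a regulator of muscle differentiation, was at 125 against 1.86 to 4.49 CPM, and Csf1r, a macrophage receptor, at 159 against 6.51 to 14.6 CPM. Developmental chains and macrophage transcripts were thus high where adult chains were low.

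The soleus library of mouse 5 given JGT-02 at 100 mg/kg also had high developmental chains, but only 3 of the 5 adult genes lay below the other soleus libraries. Myh2 was at 93.7 CPM against 2867 to 8598, Myh7 at 26.4 against 4067 to 8931 and Myh7b at 2.78 against 39.4 to 109.7. Myh1 at 1275 CPM and Myh4 at 429 CPM lay within the ranges of the others, 1173 to 5784 and 9.88 to 2820 CPM. Myh3 was at 1028 CPM against 20.4 to 119 in other soleus libraries, and Myh8 at 573 against 2.61 to 19.5. The soleus library of mouse 1 given JGT-02 at 400 mg/kg differed in another way. Its Myh4 level was 25510 CPM against 9.88 to 2820 in the other soleus libraries, and its Myh7 level was 14.0 CPM. Myh4 made up 70.7% of the 5 genes and Myh7 0.0388%. Its slow troponin T gene Tnnt1 was at 29.7 CPM, against 1795 to 3640 in soleus libraries other than these, so its markers went against the soleus label. Every result below was computed with all libraries and again without these 3.

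**Figure D1:**
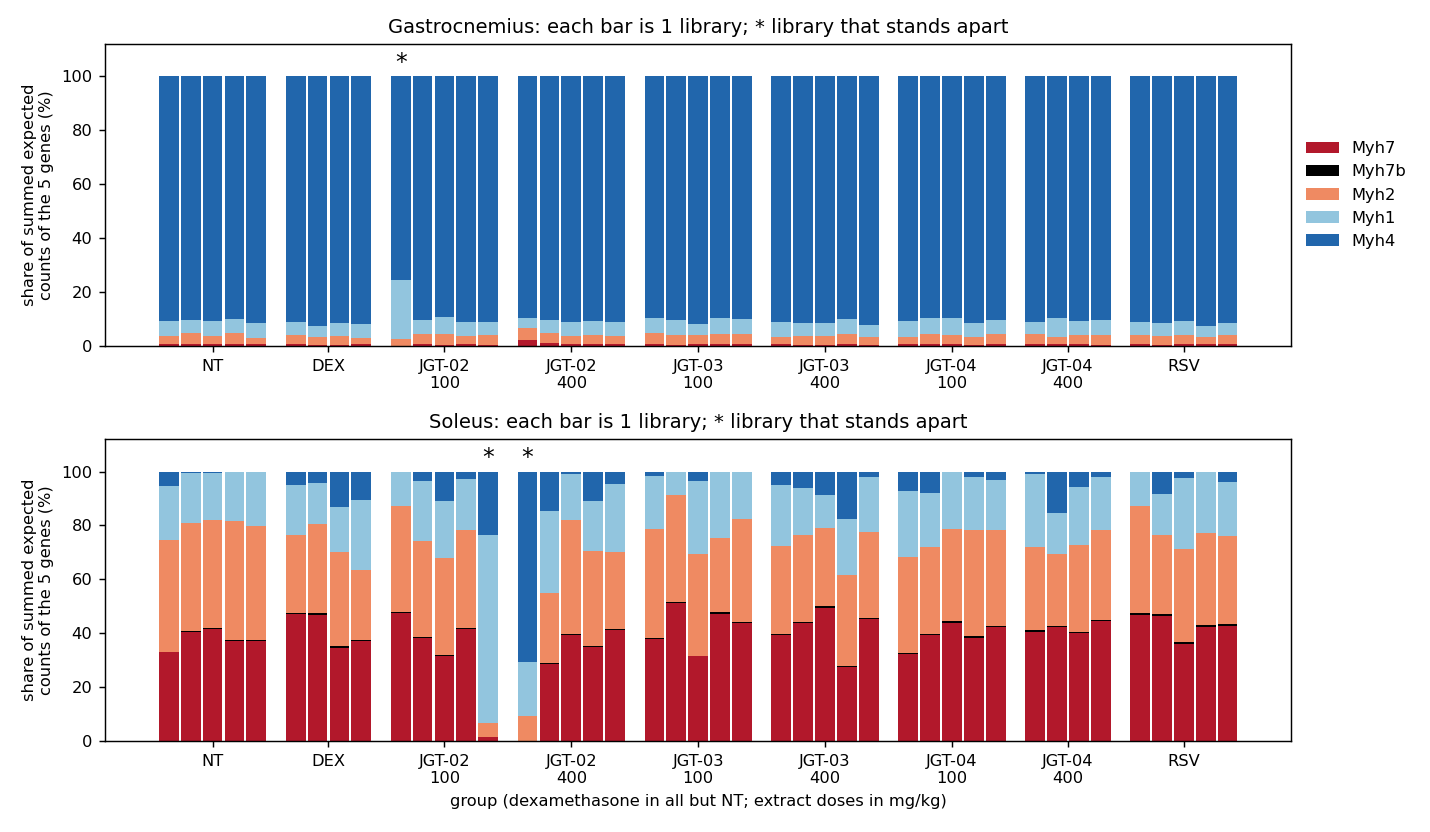
Share of each gene in the summed expected counts of the 5 (percent, vertical axis), one stacked bar per library, ordered by group within gastrocnemius and soleus. Asterisks mark the 3 libraries that stood apart, whose bars differ from their neighbours, with Myh4 at 75.3% in the gastrocnemius one and 70.7% in one of the soleus pair.

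The muscles of NT mice differed in 4 of the 5 genes, with Myh2, Myh7 and Myh7b higher and Myh4 lower in soleus. Myh4 was at 54505, 50064, 48402, 53357 and 45931 CPM in the gastrocnemius libraries labelled NT mouse 1 to 5. It was at 1113, 115, 95.03, 43.1 and 27.6 CPM in the soleus libraries so labelled. Every gastrocnemius library was above every soleus library, and soleus mouse 1 was far above its own group. The log2 difference of soleus against gastrocnemius was -7.50 ± 1.13 (SE), with an adjusted p of 5.9e-08 by edgeR's quasi-likelihood test, and -9.49 without soleus mouse 1.

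Myh7 was at 363, 425, 374, 439 and 315 CPM in NT gastrocnemius and at 6846, 7838, 7678, 6883 and 6838 CPM in NT soleus. The groups did not overlap, and the log2 difference was 4.24 ± 0.66 (adjusted p = 1.3e-07, edgeR). Myh7b, its lowly expressed relative, ran from 4.05 to 5.85 CPM in gastrocnemius and from 49.1 to 56.7 CPM in soleus, a log2 difference of 3.40 ± 0.40 (adjusted p = 4.4e-11, edgeR). Myh2 ran from 1120 to 2412 CPM in gastrocnemius and from 7348 to 8598 CPM in soleus, a log2 difference of 2.08 ± 0.37 (adjusted p = 2.8e-06, edgeR). Myh1, the IIx gene, ran from 2802 to 3198 CPM and from 3222 to 4149 CPM, without overlap. Its log2 difference of 0.27 ± 0.23 missed the threshold with all libraries in the fit (adjusted p = 0.366, edgeR) and passed it with only the NT libraries (0.29, adjusted p = 0.00496, edgeR). Of all 15327 genes tested, 45.8% passed in this comparison, 58.1% without the 3 libraries, and 43.5% had levels that did not overlap, so a call was common here.

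Compared per kilobase of transcript, the order in NT gastrocnemius was Myh4, Myh1, Myh2, Myh7 and Myh7b. The order in NT soleus was Myh2 at 1300.3 ± 78.2, Myh7 at 1158 ± 79.9, Myh1 at 588 ± 59.8, Myh4 at 46.3 ± 77.7 and Myh7b at 8.62 ± 0.524 CPM per kb (SD, n = 5). Myh2 and Myh7 overlapped in soleus, from 1208 to 1414 and from 1097 to 1258 CPM per kb. Myh4, from 4.58 to 185 CPM per kb, also overlapped Myh7b, from 7.97 to 9.20. Myh1 stood clear of its neighbours in that order.

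As shares of the 5, NT gastrocnemius held 90.1 to 91.4% Myh4, 5.05 to 5.75% Myh1, 2.23 to 4.07% Myh2 and 0.604 to 0.766% Myh7. NT soleus held 39.9 to 44.2% Myh2, 33.0 to 41.7% Myh7, 17.5 to 19.99% Myh1 and 0.150 to 5.36% Myh4. All 5 shares differed without overlap (exact permutation test over libraries, two-sided, p = 0.00794, the smallest 5 against 5 allow, and 0.0463 adjusted over 35 share tests). With any one NT library left out the adjusted p was between 0.0694 and 0.0926, since fewer libraries cannot give so small a p.

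The genes that work with these chains differed in the same comparison. All 12 fast partners tested, the light chains, troponins and calcium handling proteins of fast fibres, were lower in soleus, with a median log2 difference of -1.82 against 0.0023 over all genes. All 12 slow partners were higher, with a median of 4.31. Of 24 fibre type regulators, 8 were higher and 7 lower. Among these Prox1, a homeobox factor of slow fibres, was higher by 3.31 and Maf, a factor of IIb fibres, was lower, at -3.41 on the log2 scale. The lists were chosen with results of these data known, so the counts are descriptions.

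In gastrocnemius, none of the 5 genes passed the test between DEX and NT with all libraries in the fit, against 8.38% of 14484 genes. At an unadjusted p under 0.05 there was 1, Myh1, and DESeq2 called 0. Myh1 was at 3198, 2802, 2951, 3037 and 2891 CPM in NT mice and at 2245, 1802, 2679 and 2608 CPM in DEX mice. All 4 DEX libraries were below all 5 NT libraries, and DEX mouse 2 was the lowest. The log2 difference was -0.37 ± 0.14 (adjusted p = 0.088, edgeR), and without the 3 libraries, none of which is in these groups, -0.37 ± 0.12 (adjusted p = 0.0155), where 26.4% of genes passed. Myh1 was the only one of the 5 whose groups did not overlap, against 17.2% of all genes.

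Myh4 was at 42606, 43674, 52357 and 46778 CPM in DEX gastrocnemius, overlapping NT, and its log2 difference was -0.14 ± 0.25. Myh2 was at 1428, 1484, 1913 and 1288 CPM, within the NT range, with a log2 difference of -0.31 ± 0.28. Myh7 was at 416, 154, 276 and 313 CPM, with DEX mouse 2 below the others, and differed by -0.42 ± 0.45. Myh7b was at 5.68, 3.21, 5.19 and 5.46 CPM and differed by -0.06 ± 0.24. For these 4 genes the difference was less than 2 standard errors with all libraries in the fit. Without the 3 libraries, 3 of the 5 genes were at an unadjusted p under 0.05 by edgeR, and only Myh1 passed after adjustment. As shares, Myh1 was 5.36 ± 0.289% in NT (SD, n = 5) and 4.61 ± 0.552% in DEX (n = 4), and Myh4 was 90.6 ± 0.524% and 91.8 ± 0.639%. Both gave p = 0.0317 by the exact permutation test and 0.111 after adjustment.

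Among partner genes in gastrocnemius, 0 of 12 fast and 0 of 12 slow partners passed between DEX and NT, and the slow partners' median was -0.25 against -0.0126 over all genes. With the 3 libraries left out, 8 fast partners passed, 3 higher and 5 lower, and 2 slow partners passed, both lower. Of 24 regulators, Sox6, a repressor of slow genes, was higher (0.69 ± 0.20, adjusted p = 0.0243, edgeR). Of 6 genes of myosin folding and turnover, Trim63, which encodes the ubiquitin ligase MuRF1, was lower in DEX (-0.80 ± 0.13, adjusted p = 2.8e-05). Of 14 lists of cell type markers, the summed level of 3 did not overlap between the groups. Adipocyte markers were at 62.5 to 87.6 CPM in DEX and 14.1 to 34.5 in NT, fibroblast markers at 321 to 420 and 513 to 709, and endothelium markers were also lower. Their part in the Myh1 values was not tested.

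In soleus the IIa gene Myh2 was lower in every DEX mouse than in any NT mouse, and Myh7b was higher in 3 of 4. Myh2 was at 8598, 7712, 7348, 8137 and 7753 CPM in NT mice and at 5037, 5744, 5110 and 2867 CPM in DEX mice. The groups did not overlap, and DEX mouse 4 was by far the lowest. The log2 difference was -0.75 ± 0.45 with all libraries (adjusted p = 0.231, edgeR), and -0.75 ± 0.15 without the 3 (adjusted p = 0.000131). The value is the same and the spread differs, although no NT or DEX library is among the 3. Fitted on the NT and DEX libraries alone, its adjusted p was 0.0133.

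Myh7b was at 49.1, 56.7, 55.7, 50.6 and 53.4 CPM in NT soleus and at 85.6, 109.8, 78.3 and 39.4 CPM in DEX soleus. In 3 DEX mice it was above all NT mice and in DEX mouse 4 below them all. The log2 difference was 0.56 ± 0.47 (adjusted p = 0.407, edgeR), and without the 3 libraries 0.57 ± 0.18 (adjusted p = 0.00993). Myh7, the slow gene itself, was at 8253, 8092, 5052 and 4067 CPM in DEX, on both sides of the NT range, and differed by -0.18 ± 0.72. With all libraries 0 of the 5 genes passed by edgeR, 0 were at an unadjusted p under 0.05 and 0 passed by DESeq2, where 20.8% of 14811 genes passed by edgeR. With the 3 left out, Myh2 and Myh7b passed, 2 of 5, where 43.2% of genes passed. The share of all counts held by the 5 genes was 1.296% in DEX mouse 4, near the lowest in soleus.

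Myh4 was at 891, 763, 1921 and 1169 CPM in DEX soleus. All 4 were above NT mice 2 to 5 (115, 95.03, 43.1 and 27.6 CPM), but NT mouse 1 at 1113 CPM lay among them. The log2 difference was 2.09 ± 1.24 (adjusted p = 0.226, edgeR), and 4.07 without NT mouse 1 (adjusted p = 0.0383), so that library decided the call. Myh1 ran from 3222 to 4149 CPM in NT and from 2404 to 3248 CPM in DEX, and differed by -0.37 ± 0.31. Its adjusted p was 0.0459 with the NT and DEX libraries alone. Myh2 was the only member whose CPM ranges did not overlap, against 25.4% of all genes.

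As shares, Myh2 fell outside its NT range in every DEX soleus. It was 41.6 ± 1.75% in NT (SD, n = 5) and 28.8, 33.2, 35.1 and 26.1% in DEX mice, a mean of 30.8 ± 4.09% (n = 4). Myh7b was 0.280 ± 0.0262% in NT and 0.489, 0.635, 0.538 and 0.359% in DEX mice, so that here DEX mouse 4 was above NT as well. Each gave p = 0.0159 by the two-sided exact permutation test, the smallest that 4 against 5 allow, and 0.0694 after adjustment, so neither share passed. Myh4 was 1.37 ± 2.24% and 8.34 ± 4.28% (exact permutation p = 0.0476, 0.145 adjusted). Myh7 was 38.0 ± 3.43% and 41.4 ± 6.48%, and Myh1 18.8 ± 1.15% and 18.9 ± 4.79%, differences smaller than the spread.

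**Figure D2:**
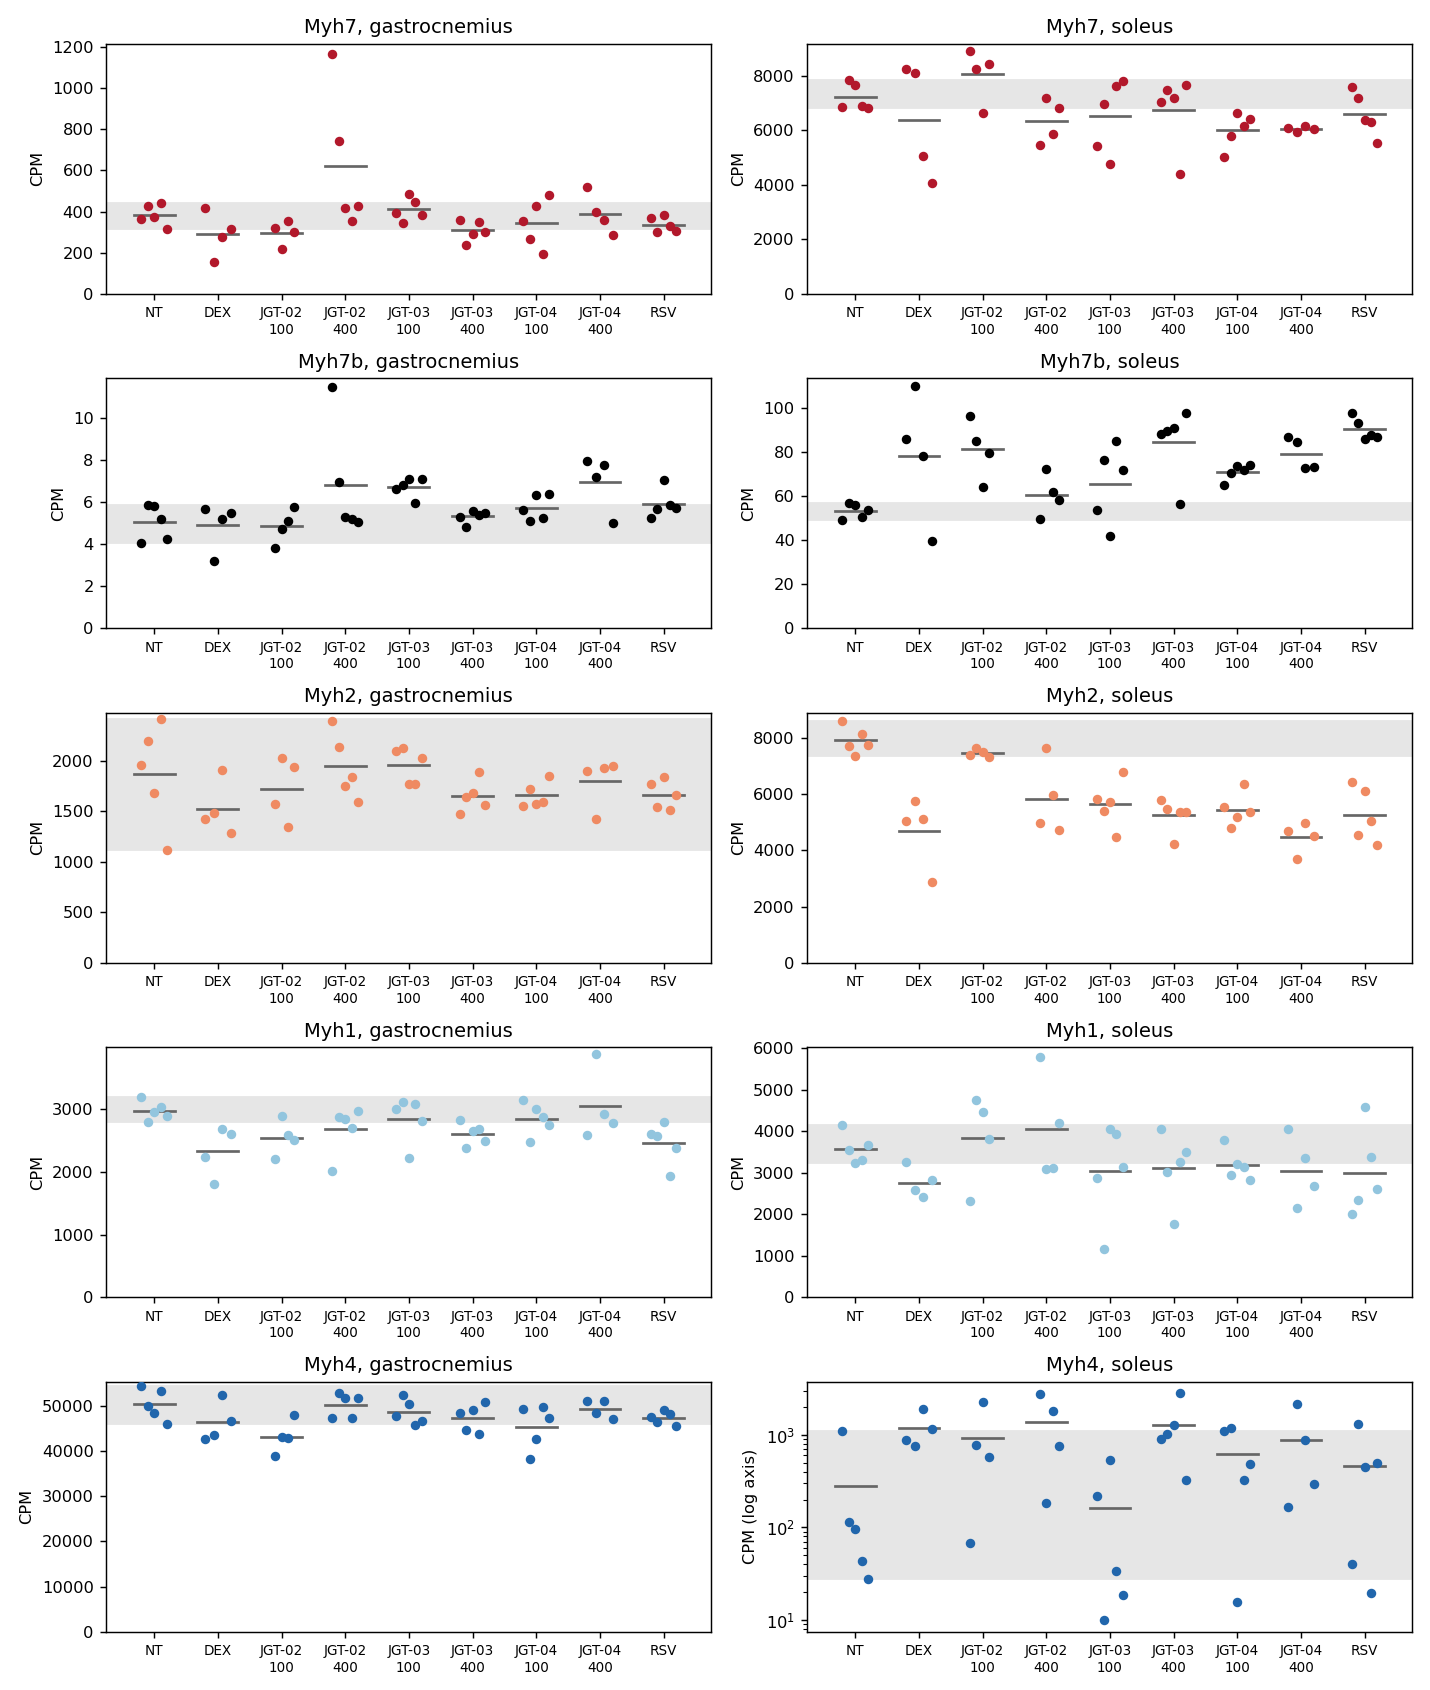
Level of each gene (CPM, vertical axis; log axis for soleus Myh4, linear from 0 elsewhere) in each library by group, with bars for group means and a grey band for the NT range. The 3 libraries that stood apart are not drawn, and the soleus Myh2 points of DEX mice, from 2867 to 5744 CPM, all lie below the band.

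Marker sums moved in soleus too. The 5 IIb fibre markers, Myh4 among them, summed to 354 to 2155 CPM in NT and 1755 to 3548 CPM in DEX, so the ranges overlapped only through 1 NT library. Adipocyte markers summed to 3.89 to 40.1 CPM in NT and 52.2 to 255 CPM in DEX, and smooth muscle markers to 117 to 133 and 159 to 244 CPM. These were the 2 of 14 lists whose ranges did not overlap. Schwann cell markers ran from 32.33 to 379 CPM in DEX (median 205.4) and from 35.08 to 81.9 in NT (median 44.78). Macrophage markers ran from 9.325 to 85.3 CPM (median 14.59) and from 6.787 to 16.3 (median 9.517), so both lists overlapped. Slow fibre markers overlapped, at 14520 to 18310 and 11160 to 20580 CPM. Their part in the Myh2, Myh4 and Myh7b values was not tested.

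Of the regulators in soleus, 6 of 24 passed between DEX and NT, all lower, with a median log2 difference of -0.32 against 0.0467 over all genes. That count stands beside 20.8% of all genes, a similar share. Among the 6 were Six4, at -0.79 (adjusted p = 0.0033, edgeR), Nfatc1, Mef2d, Myod1 and Ppard. With the 3 libraries left out, 14 were lower and 1 was higher, where 43.2% of all genes passed. Of the 12 fast partners Actn3, the alpha-actinin of fast fibres, was higher (2.01 ± 0.74, adjusted p = 0.048, edgeR), and the other 11 did not pass. Of the 12 slow partners Csrp3, a Z-disc protein, was higher (1.51 ± 0.45) and Mybpc1, slow myosin binding protein C, lower (-0.75 ± 0.27). The titin-binding ubiquitin ligases Trim55 (-0.83 ± 0.14) and Trim63 (-0.50 ± 0.14) were lower, and the chaperone Hsp90aa1 was higher (0.87 ± 0.20).

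The difference between the muscles in the DEX effect was tested directly, with 1 fit of all 86 libraries. None of the 5 genes passed by edgeR or DESeq2, and 0 were at an unadjusted p under 0.05, where 8.36% of 15327 genes passed. Soleus minus gastrocnemius was -0.46 ± 0.54 for Myh2, 0.60 ± 0.56 for Myh7b, 2.21 ± 1.29 for Myh4, -0.02 for Myh1 and 0.22 for Myh7 on the log2 scale. Leaving out the 3 libraries, Myh2 gave -0.50 ± 0.21 (adjusted p = 0.060, edgeR) and Myh7b 0.57 (adjusted p = 0.096), with 33.6% of genes passing. Without soleus NT mouse 1, Myh4 gave 4.16 (adjusted p = 0.0299). A difference between muscles was therefore not shown for Myh2 or Myh7b, and for Myh4 it rested on leaving out 1 library.

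The 8 groups that received DEX were also set together against NT, a comparison added after the data were seen. In soleus, 32 of the 36 treated libraries without the 3 had Myh2 below the whole NT range and none had it above. The 4 exceptions were mice 1 to 3 given JGT-02 at 100 mg/kg, at 7396, 7653 and 7479 CPM, and mouse 3 given JGT-02 at 400 mg/kg, at 7630 CPM. By the sets of the listed order, described in the next paragraph, all 4 are in the set of the NT and DEX libraries. All 26 soleus libraries of the next set were below the NT range, so set and treatment are mixed in this count. Myh7b was above the NT range in 31 of 36 and below it in 2. Myh7 was below in 21 and above in 5, Myh1 below in 20 and above in 5, and Myh4 above in 11 and below in 4. How often other genes had as many libraries outside the NT range was not computed, so these counts are descriptions.

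For the mean of the 8 groups in soleus, Myh2 differed by -0.59 ± 0.30 and Myh7b by 0.44 ± 0.35 on the log2 scale with all libraries, and 0 of the 5 passed by edgeR or DESeq2 while 17.8% of genes did. At an unadjusted p under 0.05 there were 0 by edgeR and 2 by DESeq2. Myh4 differed by 1.64 ± 1.00 (adjusted p = 0.268, edgeR), and by 3.62 without NT mouse 1 (adjusted p = 0.0438). Leaving out the 3 libraries, Myh2 gave -0.54 ± 0.099 (adjusted p = 5.6e-05, edgeR) and Myh7b 0.51 ± 0.13 (adjusted p = 0.0028), and 34.4% of genes passed. The libraries form 3 sets in their listed order, and the soleus libraries of NT, DEX and JGT-02 at 100 mg/kg are all in one, with most others in the next. With the set as a term and without the 3 libraries, Myh2 gave -0.39 ± 0.18 (adjusted p = 0.162, edgeR). Myh7b gave 0.51 ± 0.23 (adjusted p = 0.134), so both calls were lost, with wider standard errors. Among soleus groups only JGT-02 at 400 mg/kg has libraries in both sets, so this fit tells set from treatment only through that group. What the listed order stands for is not given in the sources used here.

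In gastrocnemius, Myh1 was below the NT range in 23 of 37 treated libraries and above it in 1, and no treated library had Myh2 outside the range. Myh7b was above in 14 and below in 2, Myh7 below in 13 and above in 6, and Myh4 below in 11. Such counts were not computed for other genes in this muscle either. For the mean of the 8 groups with all libraries 0 of 5 genes passed, 0 at an unadjusted p under 0.05 and 0 by DESeq2, against 21.2% of all genes. Without the 3 libraries 0 passed and 2 were at an unadjusted p under 0.05, where 42.7% of genes passed. With the set as a term as well, 1 passed. With all libraries Myh1 differed by -0.18 ± 0.094, less than 2 standard errors, and Myh4 by -0.14 ± 0.18.

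Across the 9 groups as a whole, 0 of the 5 genes passed in gastrocnemius with all libraries by edgeR or DESeq2, 2 were at an unadjusted p under 0.05, and 27% of genes passed. Without mouse 5 given JGT-02 at 100 mg/kg, Myh7b passed (adjusted p = 0.0401). Without the 3 libraries Myh1 (adjusted p = 0.049), Myh7 (0.0051) and Myh7b (0.031) passed by edgeR, 3 of 5, where 42.7% of genes did. In soleus only Myh4 passed with all libraries (adjusted p = 0.0097, edgeR), where 41.4% of genes did. That call rested on the soleus library of mouse 1 given JGT-02 at 400 mg/kg, since its adjusted p was 0.266 without that library and 0.203 without the 3. Without the 3, Myh2 (adjusted p = 6.6e-05) and Myh7b (0.0037) passed in soleus, where 61.2% of genes did.

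Set against the DEX group, the mean of the 6 extract groups left none of the 5 genes past the threshold in either muscle, by edgeR or DESeq2. At an unadjusted p under 0.05 there was 1 in gastrocnemius, Myh1, and 0 in soleus with all libraries. Without the 3 libraries there were 3 in gastrocnemius and 1 in soleus by edgeR, and none passed after adjustment. In gastrocnemius 1.26% of genes passed, and 9.57% without the 3 libraries. Myh1 was higher than in DEX by 0.23 ± 0.11 (adjusted p = 0.381, edgeR) and Myh7 by 0.36 ± 0.37, and Myh4 differed by -0.01. In soleus 13.9% of genes passed, and 39.6% without the 3. Myh2 differed by 0.18 ± 0.36 and without the 3 by 0.25 ± 0.12 (adjusted p = 0.097, edgeR), Myh7b by -0.20 ± 0.37 and Myh4 by -0.38 ± 0.94. Among the lists, 0 fast, 0 slow and 0 regulator genes passed in gastrocnemius, and in soleus 2 of 24 regulators passed, both higher than in DEX, Mafa among them.

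One share passed between extract and DEX groups. Myh4 was 91.8 ± 0.639% of the 5 in DEX gastrocnemius (SD, n = 4) and 90.0 ± 2.92% over the 29 extract libraries, lower by -1.79 points (exact permutation test, p = 0.0044, 0.0463 adjusted). The adjustment took in all 35 share tests, among them the 5 of NT soleus against NT gastrocnemius. Those 5 gave the same adjusted value, so this call leaned on the large differences between the muscles. Without the gastrocnemius library that stood apart the difference was -1.27 points (exact permutation p = 0.0050, 0.0463 adjusted). It did not pass when DEX mouse 2 was left out (-1.49 points, adjusted p = 0.157), nor without DEX mouse 3 (-1.90, 0.0565) or mouse 4 (-1.81, 0.0694), so it rested on single DEX libraries.

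The 6 extract groups were also taken one at a time against DEX. With all libraries 0 of 5 genes passed in any of the 12 comparisons by edgeR or DESeq2, and at most 2 were at an unadjusted p under 0.05. Of all genes in gastrocnemius, 10.2 and 0.808% passed for JGT-02 at 100 and 400 mg/kg, 0.0207 and 0.677% for JGT-03, and 1.38 and 2.04% for JGT-04. In soleus these were 8.82 and 17.1%, 8.49 and 3.06%, and 8.95 and 4.58%. When the 3 libraries were left out, 1 of the 5 genes passed in each of 3 comparisons, described next, and none in the other 9. All genes then passed at 0.963 and 5.7%, 1.17 and 6.49%, and 9.36 and 11.3% in gastrocnemius, and at 35.7 and 30.3%, 30 and 27.5%, and 31.2 and 22.2% in soleus, in the same order.

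Soleus Myh2 was at 7396, 7653, 7479 and 7319 CPM in mice 1 to 4 given JGT-02 at 100 mg/kg, all above the 4 DEX libraries (2867 to 5744 CPM). Mouse 5, which stood apart, was at 93.7 CPM. Without the 3 libraries the log2 difference was 0.66 ± 0.15 (adjusted p = 0.0011, edgeR, where 35.7% of genes passed), and with all libraries 0.35 ± 0.45 (adjusted p = 0.681), where 8.82% passed. In the other groups given JGT-02, JGT-03 or JGT-04, soleus Myh2 ran from 3707 to 7630 CPM without the 3. Of those libraries only mice 2 and 3 given JGT-02 at 400 mg/kg, at 4984 and 7630 CPM, share the set of NT, DEX and JGT-02 at 100 mg/kg. The rest are in the next set of the listed order. Without the 3, 13 of 24 regulators were higher than in DEX in the group given JGT-02 at 100 mg/kg, among them Six4 and Mef2d.

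Gastrocnemius Myh7 was at 1164, 741, 416, 355 and 429 CPM in mice given JGT-02 at 400 mg/kg, so that 2 of 5 were above the highest of the other 37 libraries, 517 CPM. The log2 difference from DEX was 1.10 ± 0.26 without the 3 (adjusted p = 0.0073, edgeR, where 5.7% of genes passed), and its adjusted p was 0.389 with all, where 0.808% passed. Leaving out single libraries gave between 0.75 and 1.33. Other slow fibre genes were high in the same mice. Tnnt1 was at 278.7 and 162.9 CPM in mice 1 and 2, against at most 120.8 in the other 37 libraries. Tnni1, slow troponin I, was at 124.9 and 66.6 CPM against at most 51.7, and Atp2a2, the slow calcium pump, at 823.9 and 496.7 against at most 356.2. Myh7b was at 11.5 CPM in mouse 1 against at most 7.94. Whether these 2 samples held more slow fibres was not tested.

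Gastrocnemius Myh1 was at 2595, 3884, 2920 and 2789 CPM in mice given JGT-04 at 400 mg/kg, with mouse 2 above all other gastrocnemius libraries. The log2 difference from DEX was 0.40 ± 0.12 without the 3 (adjusted p = 0.0267, edgeR, where 11.3% of genes passed), and its adjusted p was 0.167 with all, where 2.04% passed. The groups overlapped, since DEX mice 3 and 4 were at 2679 and 2608 CPM. All gastrocnemius DEX libraries are in the first set of the listed order and all libraries of this group in the next. With the set as a term and without the 3 libraries the difference was 0.44 ± 0.20 (adjusted p = 0.397, edgeR). The call was lost with a wider standard error, not a smaller difference. Among gastrocnemius groups only JGT-04 at 100 mg/kg has libraries in both sets, so this fit tells set from treatment only through that group.

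RSV left none of the 5 genes past the threshold against DEX in either muscle by edgeR or DESeq2, and 0 were at an unadjusted p under 0.05. In gastrocnemius 1.37% of genes passed, and 9.47% without the 3. In soleus 12.7% passed, and 36.7% without the 3. Soleus Myh7b was at 97.4, 93.3, 85.8, 87.5 and 86.9 CPM in RSV mice, the highest group mean in soleus and above every NT library, but 3 of the 4 DEX libraries lay below that range and 1 above it. Soleus Myh4 was at 40.6, 1307, 452, 19.5 and 497 CPM and differed from DEX by -1.36 ± 1.22. All soleus DEX libraries are in one set of the listed order and all soleus RSV libraries in the next. With the set as a term the Myh4 difference was 1.52 ± 2.07 with all libraries, the opposite sign, and -1.19 ± 2.03 without the 3. That term rests on JGT-02 at 400 mg/kg, the only soleus group in both sets, whose mouse 1 is among the 3. The Myh4 share was 3.05 ± 3.40% in RSV (SD, n = 5) and 8.34 ± 4.28% in DEX (exact permutation p = 0.0794, 0.202 adjusted). In gastrocnemius all 5 RSV libraries had Myh1 below the NT range, from 1942 to 2792 CPM. Without the 3 libraries, 7 of 12 slow partners passed between RSV and DEX in soleus, all higher, among them Myl2 and Tnni1, and with all libraries 0 did.

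**Figure D3:**
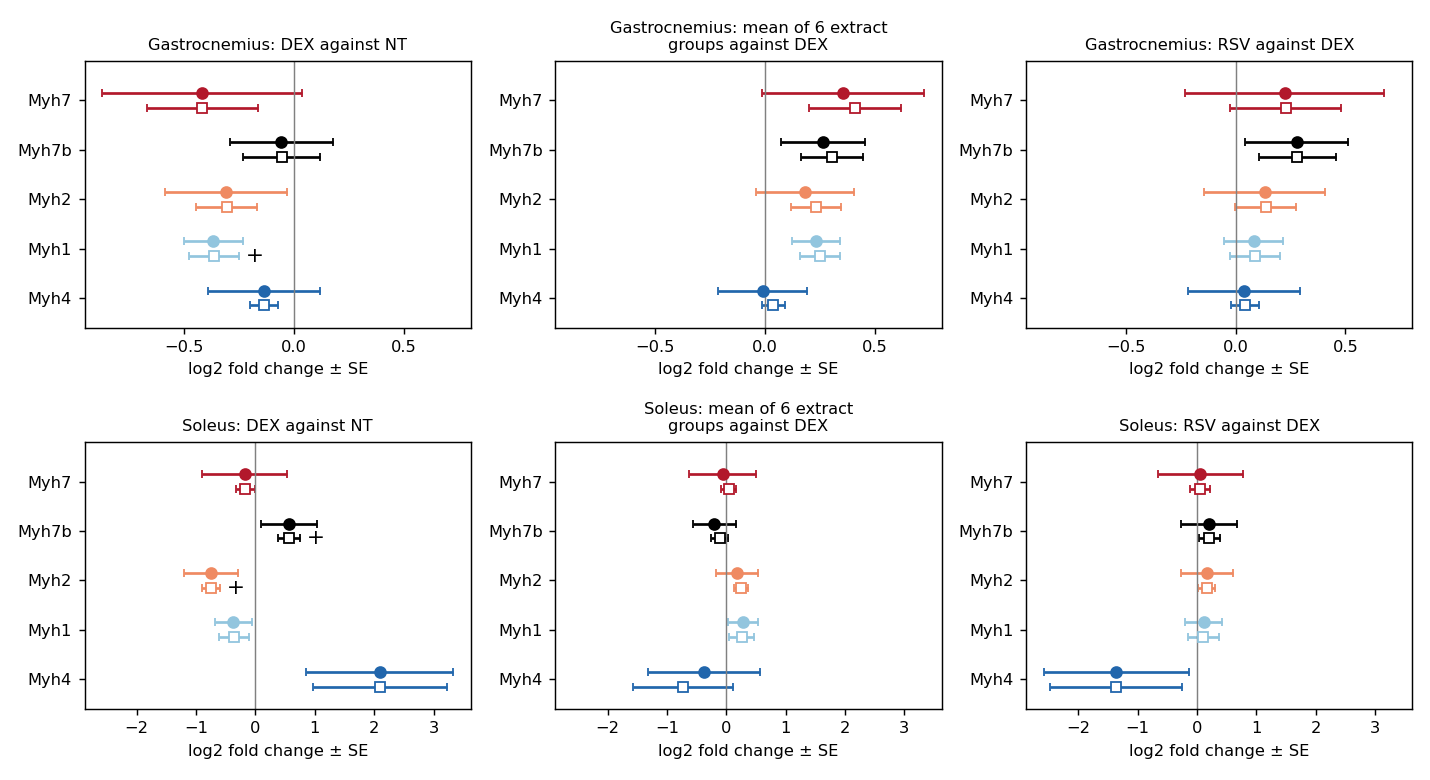
Log2 fold change with its standard error for each gene (horizontal axis) in DEX against NT, the 6 extract groups averaged against DEX, and RSV against DEX, by muscle. Filled circles use all libraries, open squares leave out the 3 that stood apart, and a plus marks an adjusted p under 0.05, which only open squares carry: Myh1 in gastrocnemius and Myh2 and Myh7b in soleus, all in DEX against NT.

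The spread within groups differed by gene. In soleus without the 3 libraries, Myh4 ran from 9.88 to 2820 CPM, a 285-fold range. Within the group given JGT-03 at 100 mg/kg alone it was at 216, 9.88, 541, 34.2 and 18.6 CPM. Actn3, a fast fibre actinin, ran from 14.5 to 1223 CPM over the same libraries and was the gene most like Myh4 there (Pearson's r = 0.87 over 41 libraries), followed by Pvalb, the calcium buffer of IIb fibres (0.84), and Spns2 (0.84). The groups overlapped in all of these.

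Relations between genes were tested for 4 pairs in each muscle, 8 in all, over 42 gastrocnemius and 41 soleus libraries without the 3, on log2 CPM with permutation p-values. Myh7 and Myh7b were the most alike pair in both. In gastrocnemius r was 0.73 (permutation p = 1e-05, the smallest these permutations give, 8e-05 adjusted) and Spearman's rho 0.59 (0.00048 adjusted), and r was 0.50 without the 2 libraries farthest from the median. In soleus r was 0.55 (permutation p = 0.00023, 0.00092 adjusted) and rho 0.48 (0.0066 adjusted), and 0.43 without those 2. Within the sets in listed order r was 0.79 and 0.69 in gastrocnemius and 0.63 and 0.69 in soleus, and after subtracting group means 0.76 and 0.87 (4e-05 adjusted in each).

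Myh2 and Myh7 were related less closely. In soleus r was 0.50 (permutation p = 0.00108, 0.00288 adjusted) and rho 0.42 (0.0139 adjusted), but r was 0.70 in one set and 0.05 in the other, so the relation did not hold within both. In gastrocnemius r was 0.39 (permutation p = 0.01, 0.0184 adjusted) and rho 0.32 (0.0626 adjusted), with 0.40 and 0.34 within the sets. The neighbours Myh4 and Myh1 gave r = 0.39 in gastrocnemius (permutation p = 0.0115, 0.0184 adjusted; rho 0.42, 0.0139 adjusted), with 0.44 and 0.24 within the sets. In soleus they gave 0.23 (permutation p = 0.149, 0.171 adjusted) and rho 0.06. Myh1 and Myh2, also neighbours and the pair sharing most 31-base words, gave r = 0.11 in gastrocnemius and 0.28 in soleus, and neither passed (0.497 and 0.0972 adjusted). After subtracting group means, none of these pairs passed. Myh4 and Myh1 in gastrocnemius then gave r = 0.32 (0.0841 adjusted), and Myh2 and Myh7 gave 0.20 in gastrocnemius (0.282 adjusted) and 0.34 in soleus (0.0785 adjusted).

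**Figure D4:**
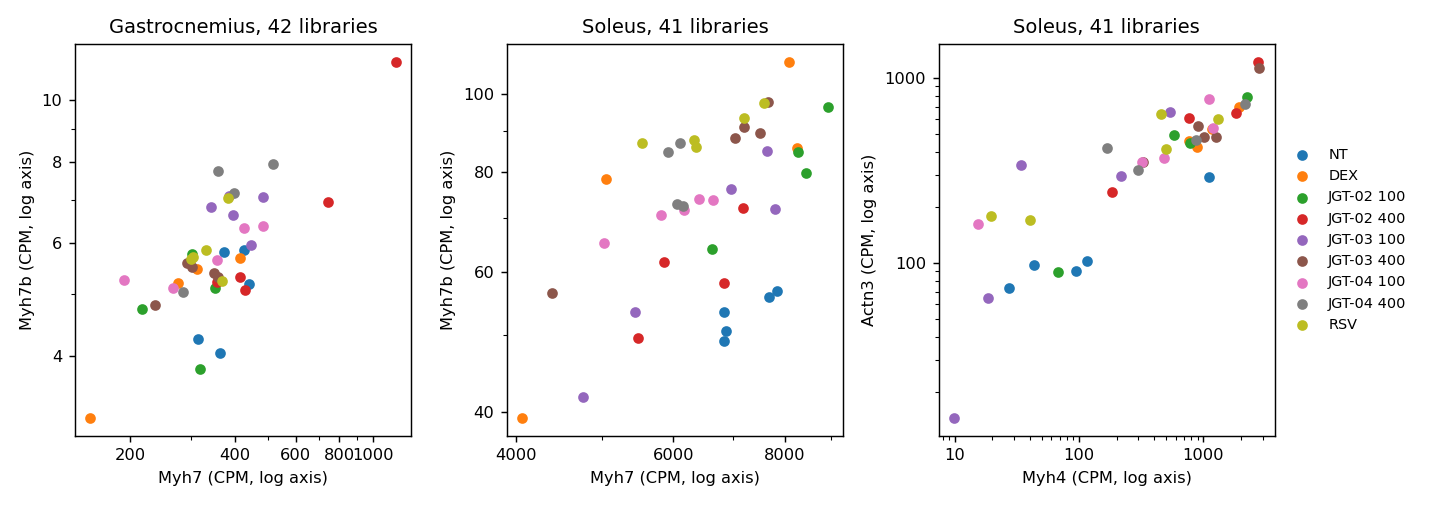
Levels in each library (CPM, log axes), coloured by group: Myh7b against Myh7 in 42 gastrocnemius and in 41 soleus libraries, and Actn3 with Myh4 in 41 soleus libraries. The points rise together in each panel, with r of 0.73, 0.55 and 0.87.

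Among all genes with a mean of at least 5 CPM, those whose log2 levels were most like each member, by Pearson's r, are given as descriptions, since all libraries share their groups and depth. Myh7 in gastrocnemius was closest to Tnnt1 (r = 0.96), Atp2a2 (0.96) and Tnni1 (0.95), all slow fibre genes. Myh7b there was closest to Tnnt1 (0.72), the slow light chain Myl2 (0.71) and Tnni1 (0.68). Myh2 was closest to Actn2 (0.79), Myom3 (0.77) and Fhl1 (0.76), which encode proteins of the sarcomere. Myh4 was closest to Ehbp1l1, Ap2a1 and Lphn1, at 0.73 to 0.74, and Myh1 to Med16, Mybpc1 and Best3, at 0.57 to 0.58.

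In soleus the lists differed. Myh7 was closest to Homer2 (0.82), Adprhl1 (0.80) and Mark1 (0.79), and Myh7b to Ocel1 (0.82), Tnnt1 (0.80) and Myl2 (0.80). Myh2 was closest to Tmem65 (0.89) and the elongation factor Eef1a2 (0.88), and Myh1 to the M-band gene Myom2 (0.76), Phkb and Tmem87a (0.64 each).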

How the data were processed

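Per the labels' protocols, TRIzol RNA went into directional MGIEasy libraries, sequenced as 100 bp paired reads. The authors deposited an expected count per gene, for which the submitters' processing notes name the build GRCm38 and RSEM 1.3.3, STAR 2.7.3a, Trim Galore 0.6.5 and FastQC 0.11.9. Annotation and strand setting are not given in the sources used here. Columns were matched to samples by name, and replicates are mice as labelled. The protocol speaks of fewer groups than the 9 that the samples form.

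Expected counts were rounded, filtered with filterByExpr, scaled by TMM and fitted with edgeR 4.0.16 in R 4.3.3, 1 fit per muscle (14484 and 14811 genes) and 1 of both (15327), with Benjamini-Hochberg adjustment and a threshold of 0.05. Standard errors are the log2 change over the square root of F. CPM are TMM-scaled. Shares use exact permutation tests (scipy 1.17.1) and relations 100000 permutations of log2 CPM with a prior count of 2. Tests were tried on simulated data: in DEX against NT, 53.0% of genes changed by 1.5-fold, 76.1% by 2-fold and 93.9% by 4-fold were called among 14424 genes in gastrocnemius, and 44.8, 58.2 and 90.9% among 14694 in soleus.

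The alternatives left genes unfiltered or used DESeq2 1.42.0, its size factors alone, only the groups compared, a set term, replicate blocks, leaving out each library, and leaving out the 3 libraries. The members, lists and libraries to set apart were chosen with earlier results of these data known. The named genes are the members, listed genes that passed, and the 3 genes most like each member with a mean of at least 5 CPM; some of these are not reported here.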

Additional observations from a re-analysis of the deposited data

Results flagged for a closer look

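Of 90 sets of shares (5 genes in 18 groups), 11 had 1 library far from the rest of its group by Dixon's test, which chance gives in about 1 in 20 groups. Of these, 6 came from the 3 libraries described as standing apart. In the gastrocnemius of mouse 1 given JGT-02 at 100 mg/kg, Myh1 was 21.83%, Myh4 75.34% and Myh7b 0.01711% of the 5 genes. In the soleus of mouse 5 of that group, Myh1 was 69.79% and Myh2 5.126%. In the soleus of mouse 1 given JGT-02 at 400 mg/kg, Myh4 was 70.72% against 1.02 to 14.51% in its group.

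The other 5 came from libraries kept throughout. In the gastrocnemius of mouse 1 given JGT-02 at 400 mg/kg, Myh1 was 3.807% against 4.906 to 5.233% and Myh7b 0.02163% against 0.008903 to 0.01184%. In the gastrocnemius of RSV mouse 4, Myh1 was 3.737% against 4.788 to 5.15%. In soleus, Myh2 was 27.67% in mouse 4 given JGT-03 at 100 mg/kg against 37.76 to 40.51%, and Myh4 was 5.361% in NT mouse 1 against 0.1503 to 0.5984%.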

How the results depend on the processing

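Counts of members called depended most on the 3 libraries. Without them, gastrocnemius had 1 call for DEX against NT, 3 across the 9 groups and 2 over the single extracts, and soleus had 2, 2 and 1, with 2 for the mean of 8 groups. With the set term as well, gastrocnemius had 1, 2 and 1, with 1 for the mean of 8 groups, and soleus had 2, 2 and 1. With only the groups compared, DEX against NT gave 1 in gastrocnemius and 2 in soleus. Relations called numbered 8 with all libraries and 2 after subtracting group means. Leaving out one library gave 0 to 3 across the 9 gastrocnemius groups and 0 to 2 in soleus, and 0 to 1 for soleus DEX, the soleus mean of 8, the single soleus extracts, the difference between muscles and the gastrocnemius extract shares; for NT shares between muscles it gave 0 of 5. Whether a mouse number shared by the muscles is the same animal is not given in the sources used here. Of 43 labels found in both muscles, 10 pairs of deviations from group means correlated above 0.1 (median r 0.0055), and 11 correlated best with their own number. Different muscles of an animal need not deviate together, so these values cannot decide it. With a replicate block the count of members called stayed at 0 within each muscle except 1 across the 9 soleus groups, and comparisons of the muscles gave 4 for NT and 0 for the DEX effect.

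Some differences changed sign, and the cause was not tested. Most were small, but soleus Myh4 with the set term was not. In soleus that term rests on the group given JGT-02 at 400 mg/kg, the only one with libraries in both sets. Mouse 1 of that group is among the 3 libraries and had Myh4 at 25510 CPM. Against DEX, the extract mean in gastrocnemius gave Myh4 at 0.03813 without the 3 and 0.002488 with the set term too, and RSV gave Myh4 at -0.1143 and -0.1094 with the set term. In soleus the extract mean gave Myh4 at 1.645 with the set term and Myh7 at 0.03867 and 0.02348, and RSV with the set term gave Myh4 at 1.523, Myh7 at -0.5354 and Myh7b at -0.3095. The soleus mean of 8 gave Myh1 at 0.2217 and 0.03098 with the set term. Myh1 and Myh2 in gastrocnemius gave r = -0.1022 after subtracting group means. Leaving out single libraries gave log2 ranges of -0.1365 to 0.09473 (Myh7b, gastrocnemius DEX), -0.04821 to 0.05109 (Myh4, gastrocnemius extracts), -0.01657 to 0.1573 (Myh1, gastrocnemius RSV), -0.2274 to 0.08803 and -0.4279 to 0.01024 (Myh7 and Myh7b, soleus extracts), -0.1044 to 0.2328, -0.007287 to 0.2903, -0.1091 to 0.2078 and -0.01477 to 0.4246 (Myh1, Myh2, Myh7 and Myh7b, soleus RSV), and -0.1594 to 0.03716 and -0.01761 to 0.4349 (Myh1 and Myh7, difference between muscles). For shares in points they were -0.0002137 to 0.001573 (Myh7b, gastrocnemius DEX), -0.1243 to 0.3881 and -0.01426 to 0.1736 (Myh1 and Myh7, gastrocnemius RSV), -2.127 to 1.494 (Myh1, soleus DEX), -0.08765 to 2.893 and -2.558 to 1.298 (Myh2 and Myh4, soleus extracts), and -1.327 to 2.641 and -0.6658 to 3.479 (Myh1 and Myh7, soleus RSV).

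Genes called in all moved too, from 1214 to between 879 and 3846 for gastrocnemius DEX, from 3079 to between 2221 and 6430 for soleus DEX, and from 1876 to between 2 and 5390 for soleus RSV. DESeq2 gave no adjusted p for Myh4 between muscles.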
